A study of Homo sapiens with 6 samples.

Results

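Rab GTPases are small membrane-bound GTP-binding proteins that give vesicles and organelles their address. The transcripts of 60 Rab genes were examined among the 22375 genes measured with a transcript cluster of their own. The members were all genes whose platform annotation gave a single symbol made of RAB, a number and an optional letter or further digit. The rule used names only, and 61 transcript clusters met it, of which the brighter of 2 stood for RAB33B. The cells were H1299, an established human non-small cell lung carcinoma line, described in the labels as parental. The PD 0332991 group had 500 nM of the drug in DMSO for 14 days, and the DMSO group had the vehicle alone for 14 days. Each group had 3 arrays, and both groups grew in RPMI medium with serum. PD 0332991 (palbociclib) inhibits the cyclin-dependent kinases CDK4 and CDK6, and the title of the study presents it as a way to re-activate the retinoblastoma protein.

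Each Rab protein cycles between a GDP-bound form held in the cytosol and a GTP-bound form on a membrane. Exchange factors (GEFs) load GTP at the target membrane, active Rabs recruit effectors such as tethers, motors and sorting adaptors, and GTPase-activating proteins (GAPs) end the active state. Rabs are anchored by geranylgeranyl groups, which are added with the help of an escort protein, and GDP dissociation inhibitors extract them again. Different Rabs mark the endoplasmic reticulum (ER) and Golgi, early, recycling and late endosomes, lysosomes, secretory vesicles and the base of the cilium.

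The values are the authors' log2 values for each transcript cluster, and all changes are PD 0332991 minus DMSO on that scale. The values ran from 1.87 to 19.9, and how they were scaled and summarised is not stated, so a change of 1 is read as a unit of that scale and not as an exact fold of RNA. Array medians lay between 4.85 and 4.98, and a level near or under them was not shown to be above background. Across transcript clusters, arrays of the same group correlated at 0.993 to 0.995 (Pearson's r) and arrays of different groups at 0.969 to 0.973. The epithelial keratin genes KRT8 and KRT18 averaged 14.83 and 14.02 in PD 0332991 arrays, against 14.03 and 14.06 in DMSO arrays, and the mesenchymal marker VIM averaged 15.10 against 15.67. KRT8 rose by 0.79 and VIM fell by 0.57, and their part in the changes below was not tested. RB1, which encodes the retinoblastoma protein, averaged 12.41 in PD 0332991 arrays and 12.32 in DMSO arrays and was not called. The 14 measured blood, endothelial and fibroblast markers, of 17 listed, all had mean levels under the median array level of 4.94. Their summed level ranged from 58.9 to 61.7 in PD 0332991 arrays and from 59.0 to 61.5 in DMSO arrays, and 1 of them, PECAM1, was called at a change of 0.40. Nothing in the labels tells whether replicate arrays stem from independent cultures of this 1 line, and all p-values therefore measure only the spread between these samples, which may be technical.

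Rab transcripts were more often higher than lower under PD 0332991. Of the 60 Rab genes 29 rose (48.3%), 8 fell (13.3%) and 23 did not pass, at an adjusted p under 0.05 by limma with Benjamini-Hochberg adjustment over all 22375 genes. Among all genes 19.6% were called higher and 18.5% lower. The median change was 0.16 over the Rab genes and 0.00078 over all genes. Rab genes had high levels for this array, with a median at percentile 71.7 of all genes, and bright genes were called more often. Of the 48 Rab genes at or above the median array level, 27 rose (56.2%) and 8 fell (16.7%), beside 29.0% called higher and 27.8% called lower among all genes at or above that level. The share that rose was thus above that of all genes over this cut, and the share that fell was below it. This describes the lists, without a test of the lists. Levels above the cut were not matched further, so a difference in level may remain in these shares. In bulk RNA, a change in the share of cells that make a transcript and a change in the amount per cell cannot be told apart.

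Few Rab changes reached 1 on the deposited scale. No Rab gene fell by 1 or more, where 5.43% of all genes were called lower by that much, and 10 Rab genes were lower at an unadjusted p under 0.05 by limma. The deepest fall was in RAB23, which fell by 0.74. A rise of 1 or more was called in 5 Rab genes (8.33%), beside 4.52% of all genes. The PD 0332991 and DMSO arrays did not overlap in 44 of the 60 Rab genes (73.3%), beside 47.5% of all genes, and in all 37 called Rab genes the groups were apart.

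**Figure D1:**
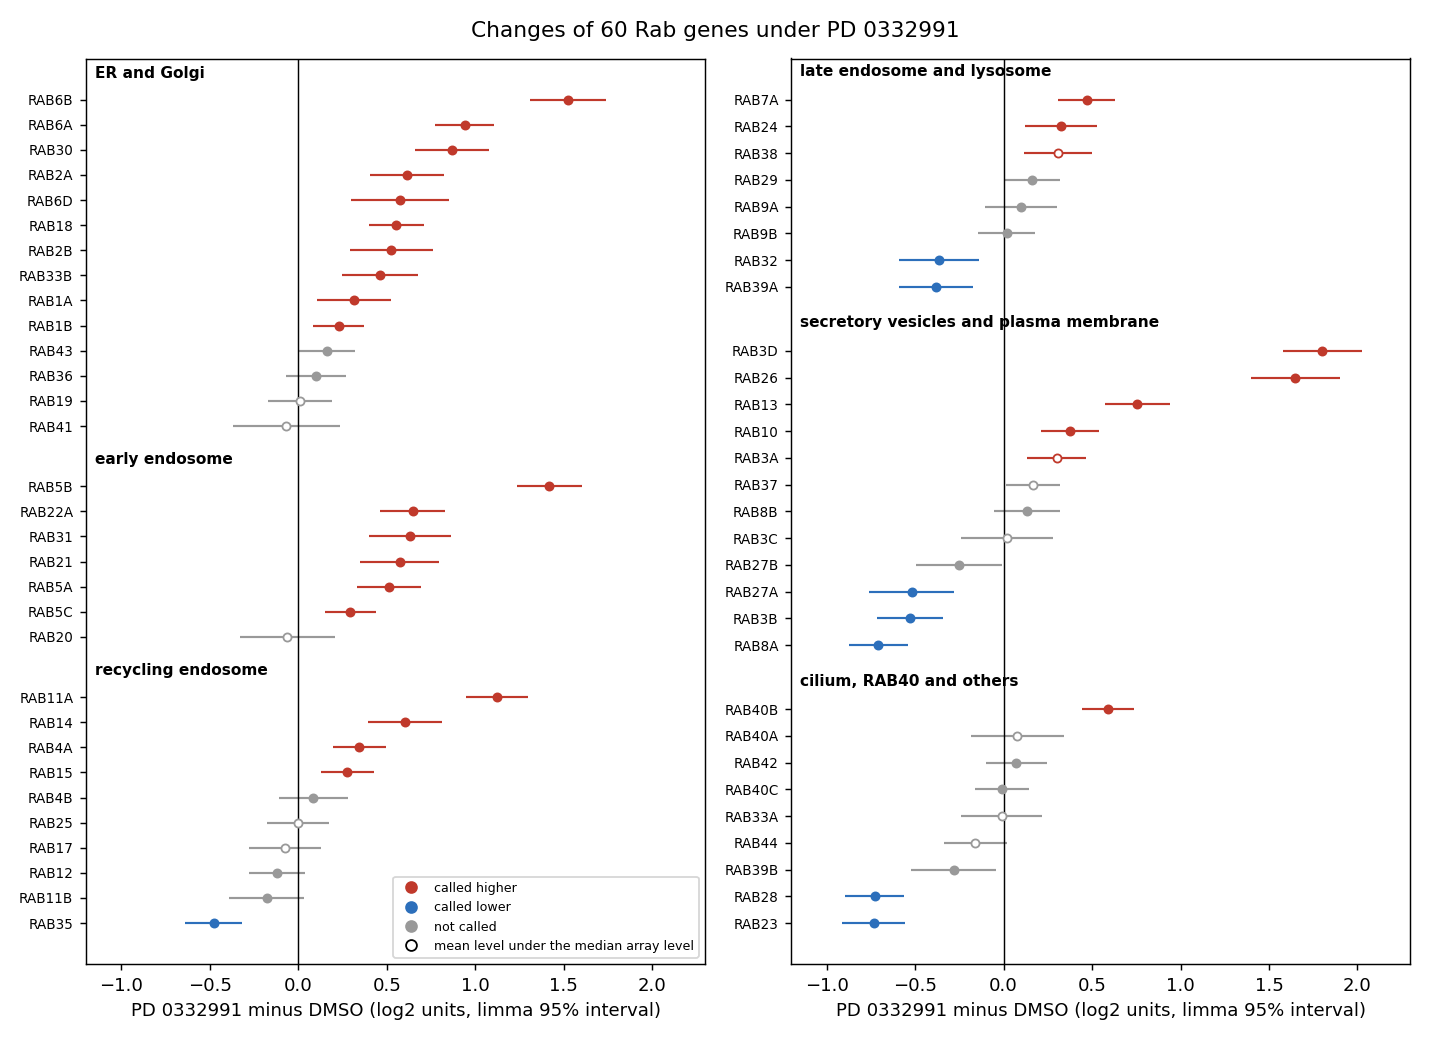
Change of each of the 60 Rab genes, PD 0332991 minus DMSO in log2 units, with limma's 95% interval (3 arrays per group), in 6 groups by compartment; open points mark mean levels under the median array level of 4.94. Called changes in the ER and Golgi and early endosome groups all lie to the right of 0, whereas the other 4 groups hold called changes on both sides.

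RAB3D, RAB26, RAB6B, RAB5B and RAB11A were the 5 genes that rose by 1 or more. RAB3D, a Rab of secretory granule exocytosis, had 10.09, 10.25 and 10.33 in PD 0332991 arrays, against 8.54, 8.27 and 8.45 in DMSO arrays. It rose by 1.80 ± 0.10 (SE, n = 3 per group; limma adjusted p = 2.83e-06). RAB26, which takes part in granule maturation in secretory cells, had 8.73, 8.74 and 8.48 in PD 0332991 arrays, against 6.90, 6.91 and 7.18 in DMSO arrays. The groups of both genes were separated by more than 1 log2 unit at their nearest arrays. RAB26 rose by 1.65 ± 0.11 (adjusted p = 8.10e-06).

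RAB6B, a paralogue of the Golgi Rab RAB6A known mainly from neurons, had 8.58, 8.78 and 8.46 in PD 0332991 arrays, against 7.14, 7.03 and 7.08 in DMSO arrays. It rose by 1.52 ± 0.09 (adjusted p = 5.43e-06). RAB5B, a Rab of early endosome fusion, had 11.14, 11.33 and 11.36 in PD 0332991 arrays, against 9.84, 9.86 and 9.87 in DMSO arrays. The DMSO arrays of RAB5B were nearly level, with an SD of 0.01. RAB5B rose by 1.42 ± 0.08 (adjusted p = 3.40e-06). RAB11A, the main Rab of slow recycling to the plasma membrane, had 13.99, 14.14 and 13.95 in PD 0332991 arrays, against 12.87, 12.95 and 12.88 in DMSO arrays. It rose by 1.12 ± 0.08 (adjusted p = 9.21e-06), again with no overlap.

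**Figure D2:**
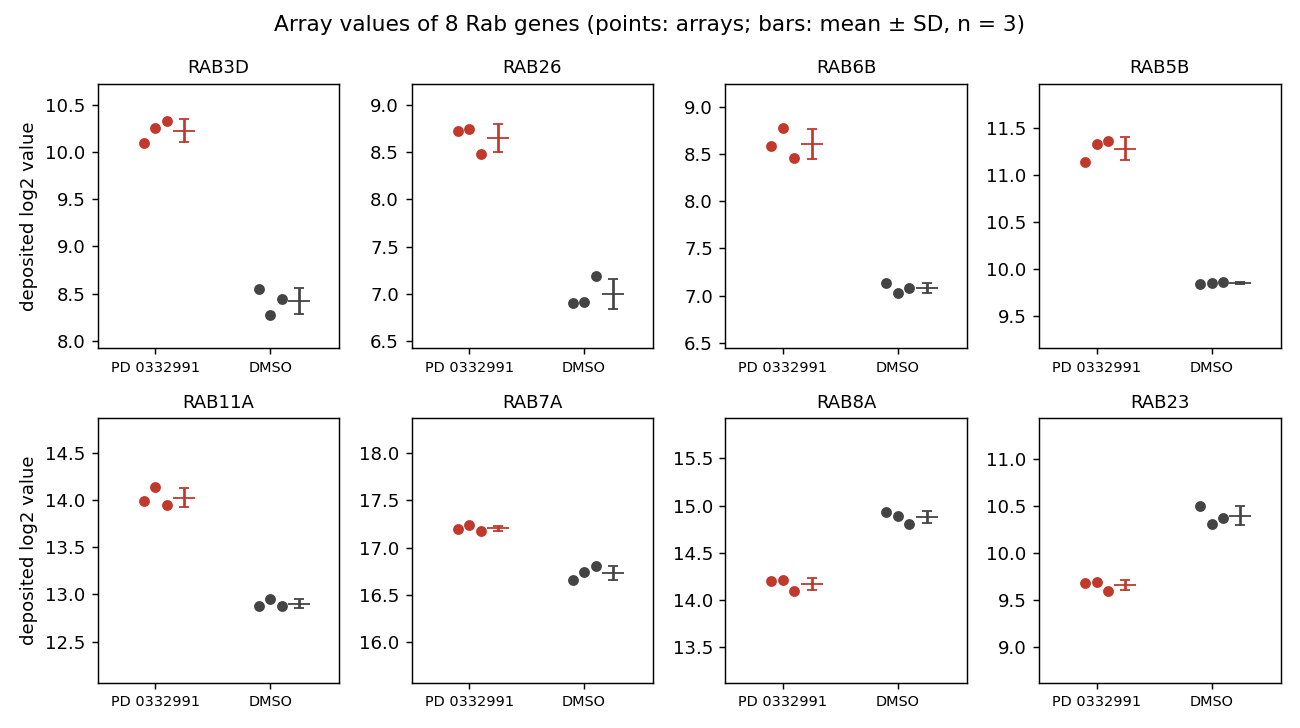
Deposited log2 values of 8 Rab genes in each PD 0332991 and DMSO array (points), with the mean ± SD of 3 arrays; every panel spans the same height. The groups are apart in all 8 genes, with PD 0332991 arrays above in the first 6 panels and below in RAB8A and RAB23.

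The promoter windows of the genes with a rise of 1 or more are shown because these genes rose together and by the most. RefSeq windows (GRCh38.p14), from 250 bases before to 50 bases after the annotated start, were matched by symbol to 47 of the 60 Rab genes, and RAB26 was among those without one. Capitals mark the letters CACGTG (the E-box core bound by many helix-loop-helix factors), CCAAT and GGGCGG (the GC box bound by Sp family factors), each searched on both strands with overlapping matches counted. Where a gene had several windows, the first listed was used. The windows lie at chr19:11339608-11339907 (minus strand) for RAB3D, chr3:133895833-133896132 (minus) for RAB6B, chr12:55973699-55973998 (plus) for RAB5B and chr15:65869241-65869540 (plus) for RAB11A.
RAB3D: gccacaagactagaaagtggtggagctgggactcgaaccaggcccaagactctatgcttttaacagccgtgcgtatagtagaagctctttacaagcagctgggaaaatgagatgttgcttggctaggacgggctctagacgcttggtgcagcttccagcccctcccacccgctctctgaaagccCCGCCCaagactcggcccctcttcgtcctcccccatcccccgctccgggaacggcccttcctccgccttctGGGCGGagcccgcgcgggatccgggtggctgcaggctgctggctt
RAB6B: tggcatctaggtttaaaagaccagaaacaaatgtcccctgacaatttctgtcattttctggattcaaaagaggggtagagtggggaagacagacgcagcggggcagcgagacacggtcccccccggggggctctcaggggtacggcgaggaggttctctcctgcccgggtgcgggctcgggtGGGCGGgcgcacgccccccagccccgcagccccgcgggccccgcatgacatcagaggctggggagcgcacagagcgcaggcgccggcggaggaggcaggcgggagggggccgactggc
RAB5B: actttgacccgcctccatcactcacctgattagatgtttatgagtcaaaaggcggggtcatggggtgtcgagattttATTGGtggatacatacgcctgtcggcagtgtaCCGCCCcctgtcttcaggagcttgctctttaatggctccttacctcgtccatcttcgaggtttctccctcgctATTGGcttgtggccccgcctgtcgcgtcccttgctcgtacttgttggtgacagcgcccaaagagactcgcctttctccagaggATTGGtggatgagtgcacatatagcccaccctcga
RAB11A: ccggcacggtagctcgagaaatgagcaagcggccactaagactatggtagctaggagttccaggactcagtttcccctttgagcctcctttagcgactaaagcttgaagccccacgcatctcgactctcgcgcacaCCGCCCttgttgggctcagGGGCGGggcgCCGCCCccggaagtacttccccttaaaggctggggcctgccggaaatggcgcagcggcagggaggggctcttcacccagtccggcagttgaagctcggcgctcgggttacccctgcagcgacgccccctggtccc

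The letters CACGTG were in none of these 4 windows. The GC box letters GGGCGG occurred 2 times in the RAB3D window, 1 time each in those of RAB6B and RAB5B, and 3 times in that of RAB11A, while RAB5B alone of the 4 held CCAAT, 3 times. Across the 47 matched Rab genes GGGCGG was present in 39 windows (83.0%), beside 12174 of the 27305 genes with a window (44.6%). It was present in 21 of 23 windows of Rab genes that rose, in 8 of 8 that fell and in 10 of 16 that did not pass. CACGTG was present in 6 Rab windows (12.8%), beside 2030 of all windows (7.43%). Those 6 were RAB4A, RAB5A, RAB21, RAB24 and RAB31, which rose, and RAB29, which did not pass. CCAAT was present in 13 Rab windows (27.7%), beside 35.7% of all. All genes with a window were neither limited to measured genes nor matched to the Rab genes by level, so these shares are not like for like. Of the uncalled Rab genes without GGGCGG, RAB17, RAB25, RAB3C, RAB40A and RAB41 lay under the median array level, and RAB29 did not. RAB19 and RAB3A, also under it, held GGGCGG. These matches describe the letters of the windows, and binding was not measured.

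In the ER and Golgi group the called genes all rose. Of 14 members 10 rose (71.4%), 0 fell by limma, as well as 0 at an unadjusted p under 0.05, and 4 did not pass. The median change was 0.49. Of the 12 members at or above the median array level 83.3% rose and 0% fell, beside 29.0% and 27.8% of all genes at that level. After RAB6B the largest rises were in RAB6A, which governs transport at the trans-Golgi and back to the ER, and in the Golgi gene RAB30. RAB6A had 13.49, 13.46 and 13.40 in PD 0332991 arrays, against 12.43, 12.57 and 12.55 in DMSO arrays, and rose by 0.94 ± 0.07 (SE, n = 3 per group; limma adjusted p = 1.71e-05). RAB30 averaged 7.05 ± 0.14 in PD 0332991 arrays and 6.18 ± 0.08 in DMSO arrays (SD), and rose by 0.87 ± 0.09 (adjusted p = 0.000106). RAB2A and RAB2B, which act between ER and Golgi, rose by 0.61 and 0.53. RAB18, found on the ER and on lipid droplets, rose by 0.55, and RAB33B, a Golgi Rab also tied to autophagosome formation, rose by 0.46. The second transcript cluster of RAB33B had a difference of 0.22. RAB6D, a retrogene copy of the RAB6A line, rose by 0.58, but near-identical copies may share signal, so its value is uncertain.

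RAB1A and RAB1B, the Rabs of ER-to-Golgi transport, had the smallest called rises of the group, 0.32 ± 0.09 (SE, n = 3 per group; limma adjusted p = 0.0245) and 0.23 ± 0.06 (0.0196). Both calls lay near the threshold and were lost when any of several single arrays was left out or the arrays were centred. Over the 15 alternatives the changes ran from 0.26 to 0.40 in RAB1A and from 0.21 to 0.28 in RAB1B. RAB1A lost its call without PD 0332991 replicate 1 (0.0841) or 2 (0.0507) and without DMSO replicate 2 (0.0864) or 3 (0.0778). RAB1B lost it without PD 0332991 replicate 1 (0.0578) or 3 (0.0623) and without DMSO replicate 2 (0.0876). With each array centred on its median the adjusted p was 0.0779 for RAB1A and 0.0767 for RAB1B. The uncalled members were RAB43 at 0.16, RAB36 at 0.10, RAB19 at 0.01 and RAB41 at -0.07. RAB19 and RAB41 lay under the median array level, so a lack of change was not shown in them.

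Every early endosome Rab above the median array level rose. Of 7 members 6 rose (85.7%) and 0 fell by limma, as well as 0 at an unadjusted p under 0.05. The median change was 0.57, and the 6 calls were kept under all 15 alternatives of processing. Of the 6 members at or above the median array level 100% rose and 0% fell, beside 29.0% and 27.8% of all genes at that level. The group was bright, with a median level at percentile 91.0 of all genes, and bright genes were called more often. After RAB5B came RAB22A, of sorting between early and recycling endosomes, which rose by 0.65 ± 0.08 (SE, n = 3 per group; adjusted p = 0.000292). RAB31, which carries cargo between trans-Golgi and endosomes, averaged 14.74 ± 0.15 in PD 0332991 arrays and 14.11 ± 0.12 in DMSO arrays (SD), and rose by 0.63. RAB21, a Rab of integrin endocytosis, rose by 0.57, RAB5A by 0.51 and RAB5C by 0.30. RAB20, known from phagosomes, had a change of -0.06 at a level of 4.30 in PD 0332991 arrays and 4.36 in DMSO arrays, under every array median.

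In the recycling endosome group 1 called gene, RAB35, fell and the other called genes rose. There were 4 rises, 1 fall and 5 uncalled genes among 10 members, and the median change was 0.04. Of the 8 members at or above the median array level 50% rose and 12.5% fell, beside 29.0% and 27.8% of all genes at that level. After RAB11A came RAB14, which links the trans-Golgi and recycling endosomes and rose by 0.60 ± 0.09 (SE, n = 3 per group; adjusted p = 0.000805). RAB4A, of fast recycling, rose by 0.34, and RAB15 rose by 0.28. RAB35, of fast recycling and the late steps of cytokinesis, averaged 8.87 ± 0.03 in PD 0332991 arrays and 9.35 ± 0.08 in DMSO arrays (SD), and fell by 0.48 ± 0.07 (SE; adjusted p = 0.000736). RAB11B and RAB12 had changes of -0.18 and -0.12, RAB4B one of 0.09. The epithelial Rab genes RAB17 and RAB25 lay under the median array level in both groups, with changes of -0.07 and -0.0014.

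The late endosome and lysosome group held 8 members, of which 3 rose and 2 fell while 3 were not called, and the median change was 0.13. Of its 7 members at or above the median array level 28.6% rose and 28.6% fell, near the 29.0% and 27.8% of all genes at that level. RAB7A, which drives late endosome maturation and fusion with lysosomes, had 17.19, 17.24 and 17.18 in PD 0332991 arrays, against 16.65, 16.74 and 16.80 in DMSO arrays. It rose by 0.47 ± 0.07 (SE, n = 3 per group; limma adjusted p = 0.000793), the largest change of the group, and kept its call under all 15 alternatives. RAB24, tied to autophagosome turnover, rose by 0.32 and RAB38, of melanosome formation, rose by 0.31 at levels under the array medians (4.30 in PD 0332991 arrays and 3.99 in DMSO arrays). RAB39A, of phagosomes and autophagy, fell by 0.38, and RAB32, of melanosomes and mitochondria, fell by 0.37. RAB9A, which returns receptors to the trans-Golgi, had a difference of 0.10, its paralogue RAB9B one of 0.02 and RAB29, which recruits the kinase LRRK2, one of 0.16, and none of these 3 was called.

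RAB7A and RAB39A kept their calls when any single array was left out, and RAB24, RAB38 and RAB32 did not. The number of called members was 3 without DMSO replicate 1, 3 without PD 0332991 replicate 2 and 3 without PD 0332991 replicate 3. RAB24 lost its call without PD 0332991 replicate 2 (adjusted p = 0.0553) or 3 (0.0704) and without DMSO replicate 1 (0.0592) or 2 (0.0714). RAB38 lost it without PD 0332991 replicate 1 (0.0690) or 2 (0.0592) and without DMSO replicate 1 (0.0599), and RAB32 lost it without PD 0332991 replicate 3 (0.0702). Without DMSO replicate 1 and PD 0332991 replicate 2 together, 1 member was called, RAB7A, and RAB39A had an adjusted p of 0.0860.

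Secretory and plasma membrane Rabs included rises and falls. Calls were 5 up and 3 down among 12 members, 4 were not called, and the median change was 0.15. Of the 9 members at or above the median array level 44.4% rose and 33.3% fell, beside 29.0% and 27.8% of all genes at that level. Besides RAB3D and RAB26, the tight junction Rab RAB13 rose by 0.76 ± 0.08 (SE, n = 3 per group; adjusted p = 0.000109), and RAB10, of glucose transporter vesicles and basolateral delivery, rose by 0.38. RAB3A, of synaptic vesicles, rose by 0.30, at levels of 4.89 in PD 0332991 arrays and 4.59 in DMSO arrays that lay near or under the array medians. RAB8A, of polarised delivery and cilium formation, had 14.20, 14.21 and 14.10 in PD 0332991 arrays, against 14.93, 14.89 and 14.81 in DMSO arrays. It fell by 0.71 ± 0.07 (adjusted p = 8.48e-05), with the groups apart. RAB3B, of regulated exocytosis, fell by 0.53 ± 0.08, and RAB27A, which docks melanosomes, secretory lysosomes and multivesicular bodies, fell by 0.52 ± 0.10. RAB27B had a change of -0.25, RAB8B one of 0.13, RAB37 one of 0.17 and RAB3C one of 0.02, none called, the last 2 under the median array level.

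Among the remaining 9 genes 1 rose, 2 fell and 6 were not called, with a median change of -0.01. Of the 6 at or above the median array level 16.7% rose and 33.3% fell, beside 29.0% and 27.8% of all genes at that level. The called falls were in RAB23 and RAB28, both tied to cilia. RAB23, which restrains Hedgehog signalling, had 9.69, 9.69 and 9.60 in PD 0332991 arrays, against 10.50, 10.30 and 10.37 in DMSO arrays. It fell by 0.74 ± 0.08 (SE, n = 3 per group; limma adjusted p = 0.000107). RAB28, of the photoreceptor cilium, averaged 9.46 ± 0.06 in PD 0332991 arrays and 10.19 ± 0.07 in DMSO arrays (SD), and fell by 0.73 ± 0.07 (SE; adjusted p = 7.56e-05). These 2 genes and RAB8A had the 3 deepest falls of the 60. RAB40B, whose product carries a SOCS box and works with a cullin ubiquitin ligase, rose by 0.59 ± 0.06 (adjusted p = 0.000127), while RAB40A and RAB40C had values of 0.08 and -0.01 and were not called. RAB39B had an uncalled change of -0.28 that was called under 5 of the 15 alternatives, at adjusted p from 0.00407 with array weights to 0.0439 with quantile normalization, and among single arrays left out only without DMSO replicate 3 (0.0344). RAB42, RAB33A and RAB44 had changes of 0.07, -0.01 and -0.16 and were not called.

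Paralogues of several subfamilies moved unequally. The difference between the changes of 2 members was taken within each array, for 24 pairs in 13 subfamilies, and tested by an exact two-sided permutation test, for which 0.1 is the smallest p that 3 against 3 arrays allow. No pair could therefore reach 0.05, and the size beside its error is the measure. RAB3D rose by 2.33 ± 0.14 (SE, n = 3 per group) more than RAB3B, the widest gap (exact p = 0.1). RAB11A rose by 1.30 ± 0.11 more than RAB11B (exact p = 0.1), although both serve recycling endosomes. RAB5B rose by 1.12 ± 0.08 more than RAB5C and by 0.91 ± 0.08 more than RAB5A, and all 3 rose. Probe sets can differ in their response to the same change of RNA, which these differences include.

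The change of RAB8B exceeded that of RAB8A by 0.84 ± 0.03 (SE, n = 3 per group; exact permutation p = 0.1), with only RAB8A called. RAB6B rose by 0.58 ± 0.11 more than RAB6A and RAB40B by 0.60 ± 0.04 more than RAB40C. RAB4A rose by 0.26 ± 0.07 more than RAB4B. RAB1A and RAB1B differed by 0.09 ± 0.09 (SE; exact permutation p = 0.4, n = 3 per group), less than the spread between arrays. RAB27B and RAB27A differed by 0.27 ± 0.15 (exact permutation p = 0.2), with overlapping arrays, so a difference between them was not shown.

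**Figure D3:**
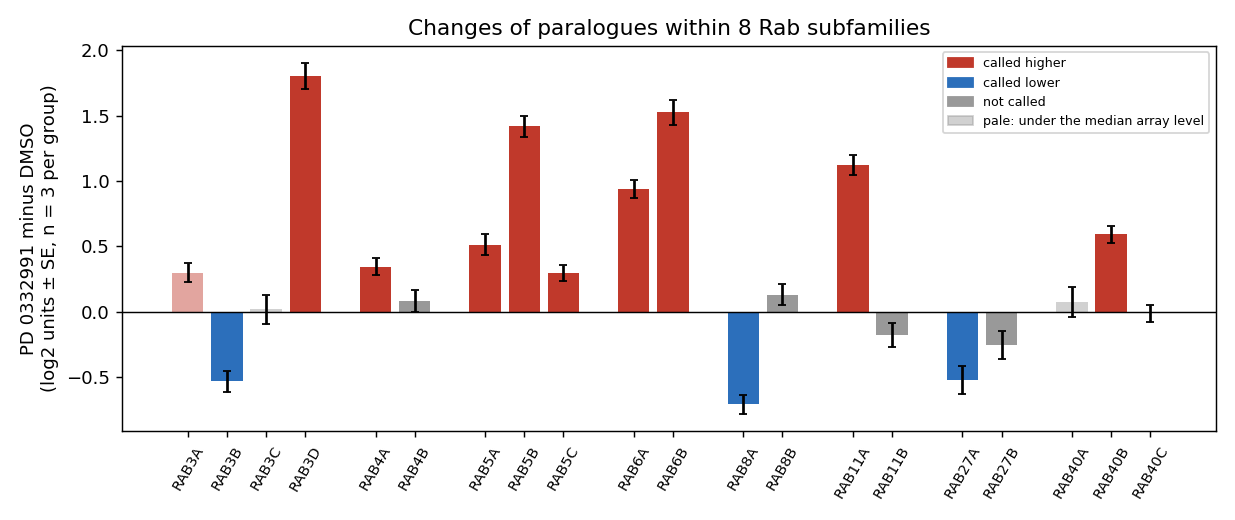
Changes of paralogues in 8 Rab subfamilies, PD 0332991 minus DMSO in log2 units (bars) with the SE (3 arrays per group); pale bars have a mean level under the median array level of 4.94. RAB3D at 1.80 and RAB3B at -0.53 lie on opposite sides of 0, and RAB11A at 1.12 stands far above RAB11B at -0.18.

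Genes that regulate or bind Rabs changed in both directions, from -2.22 to 2.37 beside -0.74 to 1.80 in the Rabs themselves. They outnumber the Rabs, which by itself widens a range, and all genes ran from -7.42 to 5.92. Of 188 listed genes 165 had a transcript cluster of their own, and 70 rose, 28 fell and 67 did not pass, with a median change of 0.12. Of the measured genes 42.4% were called higher and 17.0% lower, beside 19.6% and 18.5% of all genes. Of the 149 at or above the median array level 47.0% were called higher and 18.1% lower, beside 29.0% and 27.8% of all genes at that level. By class, 8 of 15 genes of prenylation and the membrane cycle rose and 6 fell, 21 of 48 GEFs rose and 8 fell, 19 of 36 GAPs rose and 5 fell, and 22 of 66 effectors rose and 9 fell. These classes are broad. The GEF class counts subunits of the TRAPP complex and RAB3GAP1, and the effector class counts the kinase LRRK2 and the phosphatase PPM1H. The class medians were 0.35 for prenylation and the membrane cycle, 0.15 for GEFs, 0.31 for GAPs and 0.06 for effectors. All rises of the prenylation and membrane cycle class were in membrane proteins of the PRA1 and Yip families, described below.

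The prenylation and membrane cycle genes included the deepest fall and the largest rise. CHML, which encodes the Rab escort protein REP2, had 8.36, 8.09 and 8.05 in PD 0332991 arrays, against 10.52, 10.37 and 10.26 in DMSO arrays. It fell by 2.22 ± 0.11 (SE, n = 3 per group; limma adjusted p = 1.64e-06), more deeply than any Rab gene. RABGGTA, a subunit of the geranylgeranyl transferase that the escort protein serves, fell by 0.66 ± 0.06, and GDI2, a GDP dissociation inhibitor, fell by 0.23 ± 0.07. ICMT, also of this class, fell by 0.50 ± 0.10, and RABIF was not called. ARL6IP5, of the PRA1 family of Rab-binding membrane proteins, had 15.50, 15.46 and 15.34 in PD 0332991 arrays, against 13.16, 13.02 and 13.02 in DMSO arrays. It rose by 2.37 ± 0.08 (adjusted p = 2.36e-07), and its relative RABAC1 rose by 1.16 ± 0.09. Of the Yip family of Golgi membrane proteins YIPF1 to YIPF6 all rose, from 0.35 in YIPF1 to 1.57 in YIPF4, while YIF1A and YIF1B fell by 0.33 and 0.60.

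Among GAPs TBC1D20, which acts on RAB1, rose by 1.79 ± 0.07 (SE, n = 3 per group; adjusted p = 6.88e-07) and TBC1D2B rose by 1.73 ± 0.08. TBC1D1, which acts on RAB10 in glucose transporter traffic, fell by 1.29 ± 0.08 (adjusted p = 4.82e-06). RAB3IP, which encodes the RAB8 exchange factor Rabin8, fell by 0.96 ± 0.08 (adjusted p = 2.12e-05), beside the fall of 0.71 in RAB8A. The RAB3IP relative RAB3IL1, also listed as an exchange factor, had a change of -0.11 and was not called. Among effectors GOLGB1, the Golgi tether giantin, rose by 2.00 ± 0.09 (adjusted p = 1.03e-06), and VPS41, a subunit of the HOPS tether that works with RAB7 at lysosomes, rose by 1.43 ± 0.07. EXPH5, a RAB27 effector, fell by 1.45 ± 0.11, RAB11FIP2, a RAB11 effector, fell by 1.04 ± 0.10 and PLIN3, a lipid droplet protein that binds RAB9, fell by 0.97 ± 0.10. Of the RAB11 effectors WDR44 and RAB11FIP5 rose by 0.95 and 0.74, RAB11FIP1 and RAB11FIP3 were not called, and none of the RAB27 effectors MLPH, MYRIP and SYTL1 to SYTL5 was called. RIN2, an exchange factor of RAB5, rose by 1.13, VPS39, another HOPS subunit, by 1.08, and OPTN, a RAB8 effector, by 1.24. Of other listed RAB7 partners, the effectors FYCO1 and WDR91 rose by 0.76 and 0.41. The effectors RILP and OSBPL1A and the exchange factor subunits MON1A and MON1B were not called. The RIN2 relatives RIN3 and RINL rose by 0.45 and 0.65, while RIN1 fell by 0.37. Effectors of RAB5 also went both ways. EEA1 and APPL1 fell by 0.50 and 0.49, RABEP1 rose by 0.32, and RABEP2, RBSN and APPL2 were not called. LRRK2, a kinase that phosphorylates RAB8A and RAB10, averaged 9.10 ± 0.15 in PD 0332991 arrays and 7.96 ± 0.23 in DMSO arrays (SD, n = 3 each), and rose by 1.15.

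**Figure D4:**
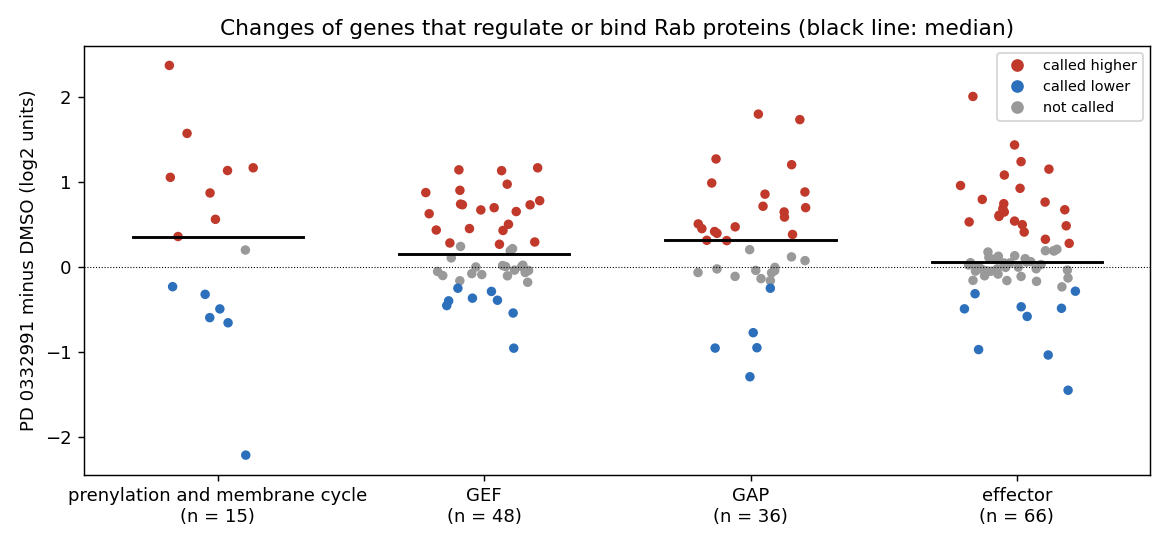
Changes of 165 genes that regulate or bind Rab proteins, PD 0332991 minus DMSO in log2 units, by class; each point is a gene, coloured by its limma call, and the black line is the class median. Points lie on both sides of 0 in every class, from -2.22 in CHML to 2.37 in ARL6IP5.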

How the data were processed

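Per the labels' protocols, total RNA was column-purified, amplified and biotin-labelled, and the kit names in the labels differ between fields. The authors deposited log2 values per transcript cluster, made with Affymetrix Expression Console per the submitters' processing notes, with version and settings not given in the sources used here. Of 65535 transcript clusters 22685 had a single symbol in the platform annotation, 1385 had several and 41465 had none listed. The brightest cluster stood for each of 22375 genes.

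PD 0332991 minus DMSO was fitted in R 4.3.3 with limma 3.58.1 (lmFit and eBayes, 4 residual degrees of freedom) without further scaling or filter, with Benjamini-Hochberg adjustment over all genes and a call at 0.05, two-sided. As a check of the code alone, the fit was run on simulated arrays with planted changes and independent genes. Rab genes were placed in 1 compartment each by their main textbook site. Array values are given for Rab genes called with a change of at least 1 and for the largest change of each compartment, other array values having been picked with the data in view. Of regulators and effectors, the 6 largest called rises and falls are named, and further names were picked with the data in view. The members and lists were chosen with earlier results of these data known. The number of arrays limits precision, with a median SE of 0.0875. The alternatives were 3 scalings, a dim-gene filter, the mean of a gene's clusters, trend with robust fitting, array weights, a replicate block and arrays left out.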

Additional observations from a re-analysis of the deposited data

Results flagged for a closer look

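A transcript cluster annotated to both RAB6C and RAB6D was left out of the comparison because it names 2 genes. It drew attention because all its PD 0332991 arrays lay above its DMSO arrays. It had 4.95, 5.37 and 5.14 in PD 0332991 arrays, against 4.30, 4.46 and 4.18 in DMSO arrays, a difference of 0.84 with no test. The levels lie near the array medians, and RAB6C and RAB6D are near-identical retrogene copies, so the signal cannot be assigned to either.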

How the results depend on the processing

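Over the 15 alternatives the number of Rab genes that rose ranged from 26 to 32 and the number that fell from 6 to 10, against 29 and 8, and no called Rab gene changed direction. Of the 37 called Rab genes 31 kept their call throughout, and 6 lost it at least once (RAB1A, RAB1B, RAB24, RAB32, RAB38 and RAB39A). Of the 23 uncalled, 6 were called under at least 1 alternative (RAB8B, RAB27B, RAB29, RAB36, RAB37 and RAB39B). The 12 regulators and effectors with the largest called rises and falls kept their calls throughout. Counts for all genes, for regulators and effectors and for the other 5 compartment groups stayed within 1.5 times. In the late endosome and lysosome group, with 5 called (3 higher, 2 lower), leaving out single arrays gave 3 to 5 called, 1 to 3 higher and 1 to 2 lower. Without DMSO replicate 1 and PD 0332991 replicate 2 together it was 1 called, 1 higher and 0 lower by limma (2 lower at an unadjusted p under 0.05), and quantile normalization gave 1 lower; the causes were not tested. With replicate number as a block, 27 Rab genes rose and 7 fell, and the late endosome and lysosome group had 3 called, 1 of them lower. The labels do not pair the arrays, and same-numbered arrays had correlations of their deviations of -0.33, -0.15 and 0.098, with 1 of 6 arrays correlating best with its own number. Genes under the median array level may be at background: 12 of the 60 Rab genes lay there, 10 of them uncalled. Leaving out dim genes tested 14320 genes, 48 of them Rab genes, with 27 higher and 9 lower.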

Other observations

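The cluster annotated to both RAB34, of lysosome positioning and cilium formation, and NARR had 6.57, 6.51 and 6.49 in PD 0332991 arrays, against 6.68, 6.59 and 6.73 in DMSO arrays. Its PD 0332991 arrays lay below its DMSO arrays, a difference of -0.15 with no test.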
